A study of Homo sapiens with 6 samples.

Results

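The inhibitor-of-κB (IκB) kinase (IKK) family and the linear ubiquitin ligase that activates it were examined in U251 cells, a human glioblastoma cell line, by RNA-seq. The set was chosen by gene symbol and holds 10 of the 58735 genes in the deposited table. Its members were IKBKB, CHUK, IKBKG, MAP3K14, IKBKE, TBK1, TANK, RNF31, RBCK1 and SHARPIN. All 10 passed the filter on low values, an expression of at least 1 FPKM in at least 3 of the 6 libraries, which 12136 genes passed. FPKM is the number of sequenced fragments divided by gene length and by a library size. The length here is that of the merged exons of all annotated transcripts, so FPKM compares the levels of different genes only roughly.

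The study compared cells given tumor necrosis factor-α (TNF-α group, 10 ng/mL) with cells given the same volume of sterile deionized water (NC group), both for 24 h and with 3 libraries each. The comparison addresses what low-dose TNF-α does to the transcriptome of glioblastoma cells. Both groups were grown in serum-containing medium, and the labels name no transgene, knockdown or other agent in either. The labels describe the replicates as independent, and all of them are cultures of 1 line, so p-values measure the spread between cultures of that line.

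In the classical pathway, ligand-bound TNF receptor gathers ubiquitin ligases, and the linear ubiquitin chain assembly complex (LUBAC) adds linear chains that the regulatory subunit NEMO (gene IKBKG) binds. The catalytic subunits IKKα (CHUK) and IKKβ (IKBKB) then phosphorylate IκB proteins, which releases NF-κB dimers to the nucleus. In the noncanonical pathway the kinase NIK (MAP3K14) acts through IKKα on the NF-κB2 precursor, while the IKK-related kinases TBK1 and IKKε (IKBKE) are best known for the activation of interferon regulatory factors.

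The libraries held 31992167 to 37897044 reads in genes. The library size inside the deposited FPKM was smaller than this number. It was 0.925 to 0.959 times the reads in genes in the NC libraries and TNF-α replicate 1. In TNF-α replicates 2 and 3 it was 0.693 and 0.759 times, which gives higher FPKM for the same reads. TNF-α replicates 2 and 3 stood apart from the other 4 libraries. In these libraries the share of reads that fell in genes over 8 kb was 16.6% and 17.9%, whereas it was 28.8% to 29.1% in the 3 NC libraries and TNF-α replicate 1. Levels in these libraries followed the GC content of the transcript, and the results on the members are therefore also given after a correction for GC content and gene length or without these libraries. Of the markers of the glioma line, VIM, NES, SOX2 and CD44 were present in every library, S100B did not exceed 0.168 FPKM and GFAP fell by 1.54 on the log2 scale (adjusted p = 0.0210, limma), a call that was kept without TNF-α replicate 1 and lost without any other single library (adjusted p up to 0.166). SOX2 was at 58.9 to 66.3 FPKM in NC and lower in every TNF-α library, at 57.8, 22.6 and 30.4 FPKM, which did not pass the test (log2 fold change -0.84, adjusted p = 0.195, limma, and -1.16 after correction, adjusted p = 0.176). The summed level of the 6 markers was 568 to 618 FPKM in NC and 675 to 1205 FPKM in TNF-α libraries, and VIM made up most of it, at 325 to 362 FPKM in NC and 434, 974 and 850 FPKM in TNF-α replicates 1 to 3. The part of these markers in the results was not tested. Markers of leukocytes and microglia, endothelium, epithelium and oligodendrocytes summed to at most 0.101, 0.0436, 0.0595 and 0.0352 FPKM in any library, with PTPRC and MOG at 0 throughout.

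Across the 10 genes, IKBKE rose and the other 9 did not pass the test. The test was limma on log2(FPKM + 1) with a Benjamini-Hochberg adjusted p under 0.05 over all 12136 genes, so fold changes are on that scale and understate those of low genes. IKBKE was the 1 of 10 called higher, against 0.717% of all tested genes, and 0 of 10 were called lower, against 0.297%. In either direction 1.01% of tested genes were called. At an unadjusted p under 0.05, 4 members were higher (IKBKG, IKBKE, RBCK1 and SHARPIN) and 1 was lower (MAP3K14), which together is 5 of 10 against 24.2% of tested genes. limma-voom on the recovered reads also called IKBKE alone. The median log2 fold change was 0.13 over the members and 0.04 over all tested genes. In bulk samples, fewer cells expressing a gene and less RNA of it per cell cannot be told apart.

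IKBKB, IKBKG, IKBKE and RBCK1 were higher in every TNF-α library than in every NC library, and RNF31 and MAP3K14 were lower in every one. These are 4 of 10 and 2 of 10 members, against 14.8% and 15.3% of tested genes, or 6 of 10 against 30.1% in either direction. The groups overlapped for CHUK, TBK1, TANK and SHARPIN. In TNF-α replicate 1 alone, IKBKB, IKBKG, IKBKE, TBK1, TANK and RBCK1 lay above the NC range. RNF31 and MAP3K14 lay below it, and CHUK and SHARPIN lay within it. The share of all tested genes outside the NC range in this library was not computed. When the table was rescaled to the same total in every library (TPM), the median of all genes moved to -0.42, and IKBKB (-0.25) and TANK (-0.40) changed sign, both staying above that median.

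**Figure D1:**
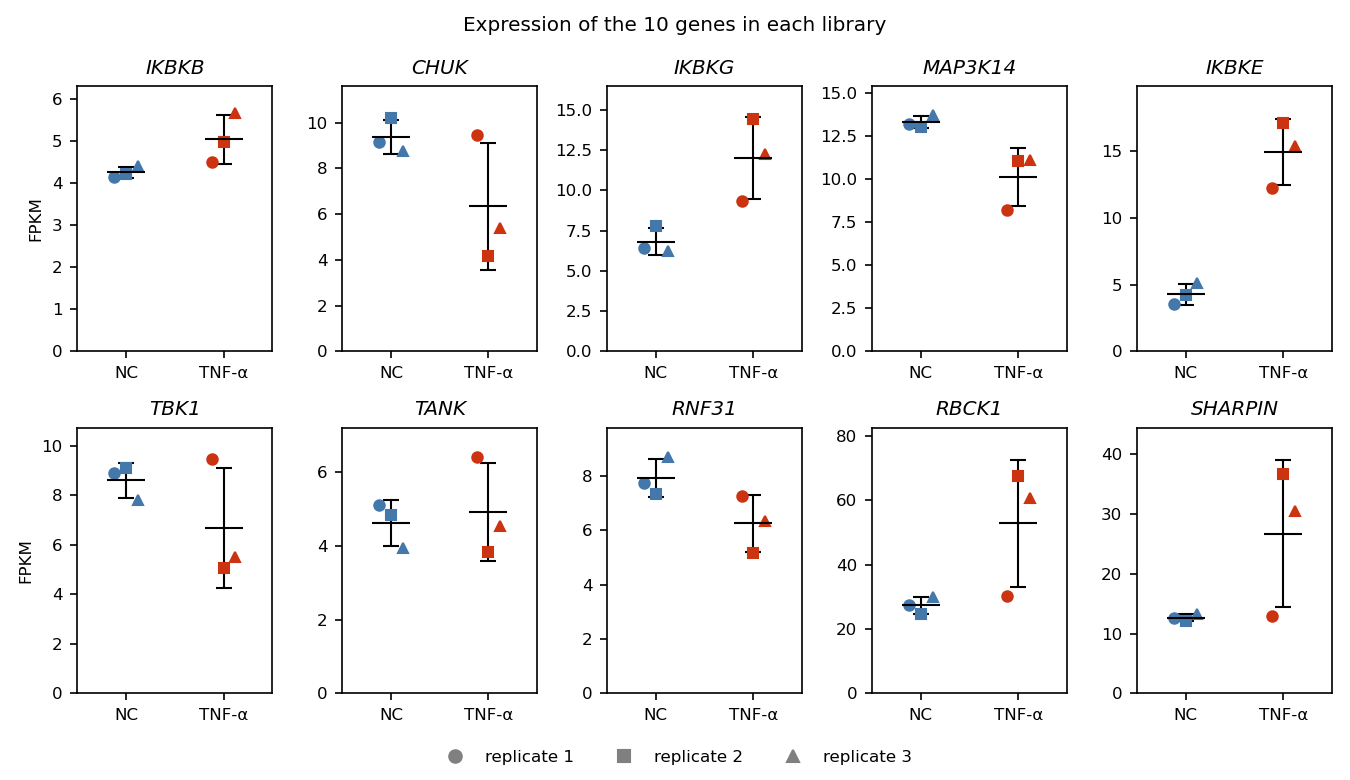
Expression of the 10 genes in FPKM (vertical axes, each from 0) in the 3 NC and 3 TNF-α libraries. Points are libraries, with the replicate given by the symbol, and horizontal lines with bars are the mean ± SD of 3 libraries. IKBKE lay at 3.52 to 5.09 FPKM in NC and 12.2 to 17.1 FPKM in TNF-α libraries, while for CHUK, TBK1 and SHARPIN replicate 1 of the TNF-α group lay near the NC libraries.

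IKBKE (ENSG00000263528) lies on the plus strand of chromosome 1 at 206470476 to 206496889 in GRCh38 and encodes IKKε. Its level was 3.52, 4.25 and 5.09 FPKM in NC replicates 1 to 3, and 12.2, 17.1 and 15.3 FPKM in TNF-α replicates 1 to 3. Every TNF-α library was above the highest NC library, with 482 to 620 reads behind the NC values and 1413 to 1683 behind the TNF-α values. The mean went from 4.29 ± 0.787 to 14.9 ± 2.47 FPKM (SD, n = 3 each), which is 3.48-fold. The fold change on the log2 scale was 1.59 (SE 0.18, adjusted p = 0.0197, limma), and the exact two-sided permutation test gave p = 0.1, the smallest that 3 against 3 libraries allow. Counting error was small beside this difference, since the exact 95% Poisson interval was 3.21 to 3.85 FPKM in NC replicate 1 and 11.6 to 12.9 FPKM in TNF-α replicate 1. These intervals cover counting error only.

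The rise of IKBKE was present in TNF-α replicate 1, the library whose composition resembled the NC libraries. There it lay 1.34 above the NC mean on the log2 scale, and 1.79 and 1.64 above it in TNF-α replicates 2 and 3. For its GC content (58.7%) and length (3791 bases) the fitted shift in the last libraries was 0.80 and 0.68, and after correction the 3 libraries lay 1.32, 0.99 and 0.96 above the NC mean. The corrected log2 fold change was 1.09 (SE 0.15, adjusted p = 0.0263, limma). With TNF-α replicates 2 and 3 left out it was 1.34 (adjusted p = 0.00736, limma), in a fit where the lone TNF-α library is assumed to vary like the NC libraries. The call was lost without any 1 of 5 libraries. The adjusted p (limma) was 0.143, 0.168 and 0.123 without NC replicates 1, 2 and 3, 0.0714 and 0.141 without TNF-α replicates 2 and 3, and 2.06e-05 without TNF-α replicate 1. The log2 fold change stayed between 1.48 and 1.71 in these 6 fits. The replicate block gave an adjusted p of 0.0805 (limma), rescaling to TPM gave 1.25 (adjusted p = 0.0731) and dropping the filter on low values gave an adjusted p of 0.0557.

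TBK1 (ENSG00000183735; chromosome 12, 64451880 to 64502108, plus strand) encodes the closest relative of IKKε. It was at 8.91, 9.09 and 7.80 FPKM in NC and at 9.48, 5.05 and 5.51 FPKM in TNF-α libraries. TNF-α replicate 1 was above and replicates 2 and 3 were below all NC libraries, so the groups overlapped. On the log2 scale the difference was -0.36 (SE 0.23, adjusted p = 0.258, limma; exact permutation p = 0.4). It was -0.17 after correction (adjusted p = 0.383) and 0.13 with TNF-α replicates 2 and 3 left out (adjusted p = 0.542). An antisense gene, AC135279.3, covers 14.7% of the exonic bases of TBK1 and had at most 16 reads in any library.

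TANK (ENSG00000136560; chromosome 2, 161136908 to 161236221, plus strand) encodes an adaptor that binds TBK1 and IKKε. Its level was 5.12, 4.83 and 3.93 FPKM in NC and 6.40, 3.83 and 4.52 FPKM in TNF-α libraries. The highest and the lowest of all 6 values were both TNF-α libraries. TANK thus had a log2 fold change of 0.06 (SE 0.19, adjusted p = 0.827, limma) and 0.35 after correction (adjusted p = 0.139), where the 3 TNF-α libraries lay 0.38, 0.27 and 0.39 above the NC mean and no longer overlapped the NC libraries.

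The sequences at the start sites of these 3 genes are shown because the kinase that rose and its closest relative can be compared there. In the RefSeq table used here (GRCh38.p14), 8 of the 10 members were matched, with 13 windows of 250 bases before and 50 bases after a transcript start. The windows of IKBKB and SHARPIN were not analysed here. Each window was searched on both strands for the κB consensus, for an interferon response element-like (ISRE-like) motif (GAAA, any 2 bases, GAAA), for the GC box (GGGCGG) and for the TATA box (TATAAA). In the windows of IKBKE (chr1:206470226-206470525, plus strand, 55% GC) and TBK1 (chr12:64451870-64452169, plus strand, 68.3% GC) none of the 4 motifs was found. The first window of TANK (chr2:161136713-161137012, plus strand, 40.3% GC) held a match to the κB consensus. The match, in capitals, lies on the strand opposite to the gene and starts 46 bases before the transcript start.
IKBKE: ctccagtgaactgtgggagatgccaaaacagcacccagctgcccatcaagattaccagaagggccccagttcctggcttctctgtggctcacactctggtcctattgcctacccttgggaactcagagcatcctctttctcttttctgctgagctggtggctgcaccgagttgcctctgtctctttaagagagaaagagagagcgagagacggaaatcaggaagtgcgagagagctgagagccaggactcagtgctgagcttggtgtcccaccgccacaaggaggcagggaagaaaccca
TBK1: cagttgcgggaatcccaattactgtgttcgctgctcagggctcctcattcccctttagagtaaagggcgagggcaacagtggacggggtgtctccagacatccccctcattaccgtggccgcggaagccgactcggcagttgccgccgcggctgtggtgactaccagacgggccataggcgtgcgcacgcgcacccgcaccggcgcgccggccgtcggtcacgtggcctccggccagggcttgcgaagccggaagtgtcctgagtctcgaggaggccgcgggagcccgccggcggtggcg
TANK: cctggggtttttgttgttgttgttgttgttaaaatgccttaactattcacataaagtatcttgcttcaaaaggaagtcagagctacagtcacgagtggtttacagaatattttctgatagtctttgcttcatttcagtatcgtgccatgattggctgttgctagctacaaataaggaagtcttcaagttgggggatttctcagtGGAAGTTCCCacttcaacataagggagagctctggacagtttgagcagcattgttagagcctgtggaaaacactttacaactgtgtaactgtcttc

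The κB consensus was present in 1 of the 13 windows, against 11.3% of all 35116 windows in the RefSeq table. The ISRE-like motif was present in 2 windows (RBCK1 and RNF31), against 3.57%. The GC box was present in 6, against 45.0%, and the TATA box in 0, against 11.5%. Such a match describes the letters in the window and is not a measured binding site, and the absence of one says nothing about binding elsewhere.

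The 3 subunits of the IKK complex did not pass the test. IKBKG (ENSG00000269335; X chromosome, 154541199 to 154565046, plus strand), the gene of the regulatory subunit NEMO, was at 6.42, 7.77 and 6.22 FPKM in NC and at 9.35, 14.4 and 12.3 FPKM in TNF-α libraries. All TNF-α libraries were above all NC libraries. This amounted to a log2 fold change of 0.72 (SE 0.19, adjusted p = 0.172, limma; exact permutation p = 0.1). After correction for GC content and length it was 0.12 (adjusted p = 0.618), and the groups overlapped, with TNF-α replicates at 0.40, 0.0060 and -0.055 from the NC mean. The gene has a near-identical pseudogene copy, IKBKGP1, and 28.4% of the 50-base stretches of its exons occur in another gene. Reads given to IKBKGP1 varied widely, at 245, 737 and 54 in NC and 52, 82 and 47 in TNF-α libraries. When they were added to those of IKBKG, an alternative chosen after seeing the data, the level was 8.34, 14.1 and 6.70 FPKM in NC and 9.81, 15.3 and 12.8 FPKM in TNF-α libraries. The groups then overlapped, and the log2 fold change was 0.39 (adjusted p = 0.322, limma). The level of IKBKG is thus uncertain by the share of reads assigned to its copy.

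IKBKB (ENSG00000104365), which encodes IKKβ, the main IκB kinase of the classical pathway, was at 4.14, 4.21 and 4.40 FPKM in NC and at 4.49, 4.97 and 5.65 FPKM in TNF-α libraries. The TNF-α libraries were all higher, by a small margin in replicate 1. The log2 fold change was 0.20 (SE 0.12, adjusted p = 0.255, limma) and 0.46 after correction (adjusted p = 0.177), with no overlap between the groups in either case, but 0.066 with TNF-α replicates 2 and 3 left out (adjusted p = 0.723). IKBKB is the longest member, at 11241 bases, and the fitted shift for its length and GC content was -0.40 in both TNF-α replicates 2 and 3.

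CHUK (ENSG00000213341; chromosome 10, 100188298 to 100229619, minus strand) encodes IKKα. It was at 9.14, 10.2 and 8.77 FPKM in NC and at 9.48, 4.15 and 5.39 FPKM in TNF-α libraries. TNF-α replicate 1 lay among the NC libraries, whereas replicates 2 and 3 were the lowest of all. For CHUK the log2 fold change was -0.56 (SE 0.27, adjusted p = 0.197, limma; exact permutation p = 0.3). It was -0.20 after correction (adjusted p = 0.264) and 0.02 with TNF-α replicates 2 and 3 left out (adjusted p = 0.949). CHUK has the lowest GC content of the members, at 36.3%.

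MAP3K14 (ENSG00000006062; chromosome 17, 45263119 to 45317145, minus strand), which encodes NIK, was lower in every TNF-α library. Its level was 13.2, 13.0 and 13.7 FPKM in NC and 8.21, 11.1 and 11.1 FPKM in TNF-α libraries, with 1526 to 2764 reads behind each value. The mean went from 13.3 ± 0.366 to 10.1 ± 1.67 FPKM (SD, n = 3 each). On the log2 scale this was a change of -0.38 (SE 0.15), which did not pass the test (adjusted p = 0.195, limma; exact permutation p = 0.1).

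The size of this difference depended on the library. TNF-α replicate 1 lay 0.64 below the NC mean on the log2 scale, and replicates 2 and 3 lay 0.25 and 0.24 below it. MAP3K14 has a GC content of 59.0%, and the shift fitted to its GC content and length was 0.44 and 0.35 in TNF-α replicates 2 and 3. After correction the 3 TNF-α libraries lay 0.64, 0.69 and 0.59 below the NC mean, and MAP3K14 passed the test with a log2 fold change of -0.64 (SE 0.08, adjusted p = 0.0223, limma). It also passed without TNF-α replicate 1 (-0.24, adjusted p = 0.00956, limma). With TNF-α replicates 2 and 3 left out the log2 fold change was -0.64, which rests on the lone TNF-α library. IKBKE and MAP3K14 were the 2 members called after correction, against 2.04% of tested genes, and the 2 called with TNF-α replicates 2 and 3 left out, against 6.03%. Without TNF-α replicate 1, all members but TANK were called, that is 9 of 10, but so were 79.4% of tested genes. The antisense gene MAP3K14-AS1 covers 12.3% of the exonic bases of MAP3K14 and had 19 to 70 reads per library.

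**Figure D2:**
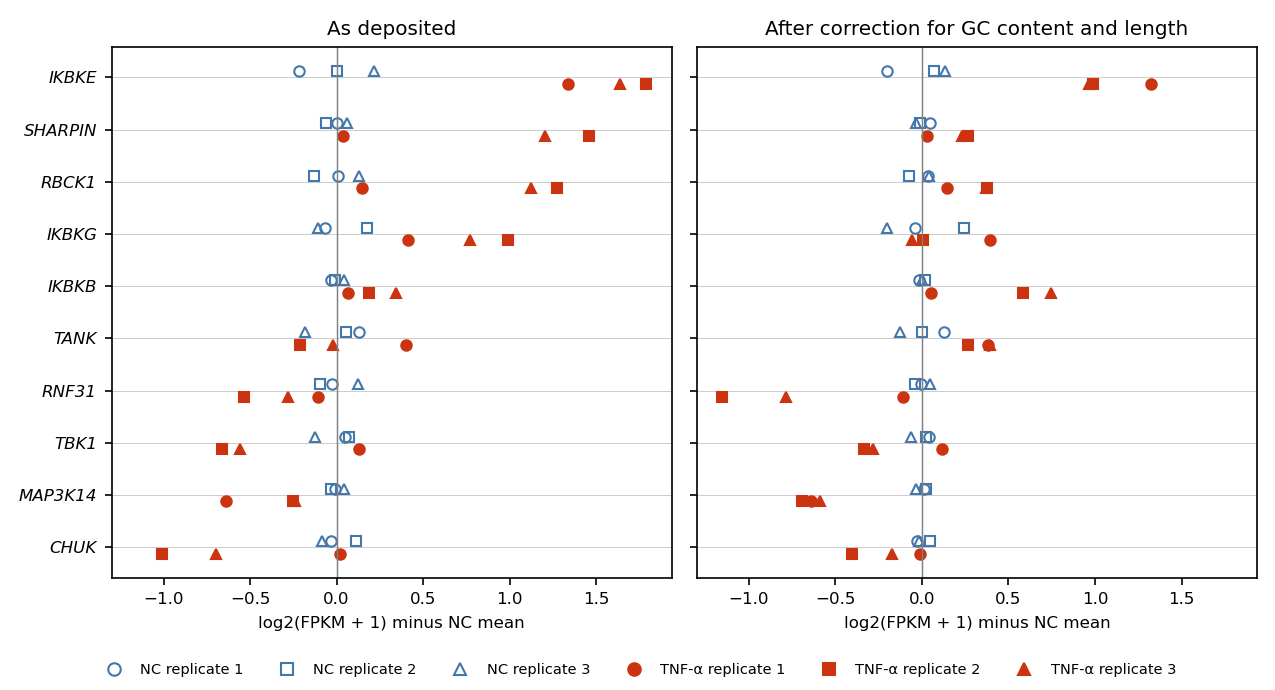
Log2(FPKM + 1) of each library minus the mean of the 3 NC libraries (horizontal axis) for the 10 genes, as deposited on the left and after correction for GC content and length on the right. Open symbols are NC and filled symbols TNF-α libraries. As deposited, IKBKE lay 1.34 to 1.79 above the NC mean and MAP3K14 0.24 to 0.64 below it. After correction the 3 TNF-α libraries of both genes came closer together, at 0.96 to 1.32 above and 0.59 to 0.69 below, whereas those of RNF31 and IKBKB moved further apart.

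LUBAC consists of the catalytic subunit HOIP (RNF31) and the accessory subunits HOIL-1 (RBCK1) and SHARPIN. None of the 3 passed the test. By group means RNF31 was lower and RBCK1 and SHARPIN were higher in TNF-α cells, SHARPIN with overlap between the groups. The higher levels of the accessory subunits lay mostly in TNF-α replicates 2 and 3. There the shift fitted to the GC content and length of RBCK1 was 0.90 and 0.76, and that of SHARPIN 1.19 and 0.97. The windows at the starts of RBCK1 (chr20:408049-408348, plus strand, 74.0% GC) and RNF31 (chr14:24146625-24146924, plus strand, 67.3% GC) are shown because both held the ISRE-like motif, in capitals, on the strand opposite to the gene. It starts 2 bases after the annotated start position of RBCK1 and 246 bases before that of RNF31.
RBCK1: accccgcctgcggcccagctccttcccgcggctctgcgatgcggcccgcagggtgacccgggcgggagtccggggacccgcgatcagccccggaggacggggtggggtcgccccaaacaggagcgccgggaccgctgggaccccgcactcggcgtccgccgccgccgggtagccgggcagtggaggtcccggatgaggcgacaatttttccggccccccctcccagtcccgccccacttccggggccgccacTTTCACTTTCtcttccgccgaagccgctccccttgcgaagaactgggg
RNF31: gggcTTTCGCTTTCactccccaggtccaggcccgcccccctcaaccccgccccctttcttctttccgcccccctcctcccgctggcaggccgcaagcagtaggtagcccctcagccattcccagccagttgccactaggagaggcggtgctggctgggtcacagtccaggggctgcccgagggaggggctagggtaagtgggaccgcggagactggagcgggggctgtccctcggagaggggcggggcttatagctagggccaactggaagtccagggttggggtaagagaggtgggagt

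RNF31 (ENSG00000092098; chromosome 14, 24146683 to 24160661, plus strand) was at 7.75, 7.33 and 8.70 FPKM in NC and at 7.26, 5.15 and 6.34 FPKM in TNF-α libraries. The TNF-α libraries were all lower, replicate 1 by a small margin. For RNF31 the log2 fold change was -0.31 (SE 0.15, adjusted p = 0.200, limma; exact permutation p = 0.1) and -0.68 after correction (adjusted p = 0.174), but -0.11 with TNF-α replicates 2 and 3 left out (adjusted p = 0.623). The correction set the TNF-α libraries further apart, at -0.11, -1.15 and -0.79 from the NC mean. Of the exonic bases of RNF31, 39.1% overlap other genes. One of them, AL136295.5 on the same strand, had 27 to 86 reads per library. The other, PSME2 on the opposite strand, encodes a proteasome activator subunit and had 3341 to 11179 reads per library, most in TNF-α replicates 2 and 3. Strand cannot separate AL136295.5 from RNF31, and whether strand was used in counting is not stated. The level of RNF31 is thus uncertain where the genes overlap.

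RBCK1 (ENSG00000125826; chromosome 20, 407498 to 430966, plus strand) had the highest level of the 10 genes. It was at 27.4, 24.8 and 29.9 FPKM in NC and at 30.4, 67.5 and 60.7 FPKM in TNF-α libraries. TNF-α replicate 1 was just above the NC libraries, and replicates 2 and 3 were far above them. RBCK1 thus had a log2 fold change of 0.85 (SE 0.31, adjusted p = 0.195, limma; exact permutation p = 0.1), 0.30 after correction (adjusted p = 0.167) and 0.15 with TNF-α replicates 2 and 3 left out (adjusted p = 0.513).

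SHARPIN (ENSG00000179526) was at 12.7, 12.1 and 13.3 FPKM in NC and at 13.0, 36.6 and 30.5 FPKM in TNF-α libraries. TNF-α replicate 1 lay among the NC libraries. SHARPIN thus had a log2 fold change of 0.90 (SE 0.37, adjusted p = 0.195, limma; exact permutation p = 0.2). It was 0.18 after correction (adjusted p = 0.235) and 0.04 with TNF-α replicates 2 and 3 left out (adjusted p = 0.866). SHARPIN has the highest GC content of the members, at 66.9%, and the shift that GC content and length gave in TNF-α replicates 2 and 3 was 1.19 and 0.97.

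**Figure D3:**
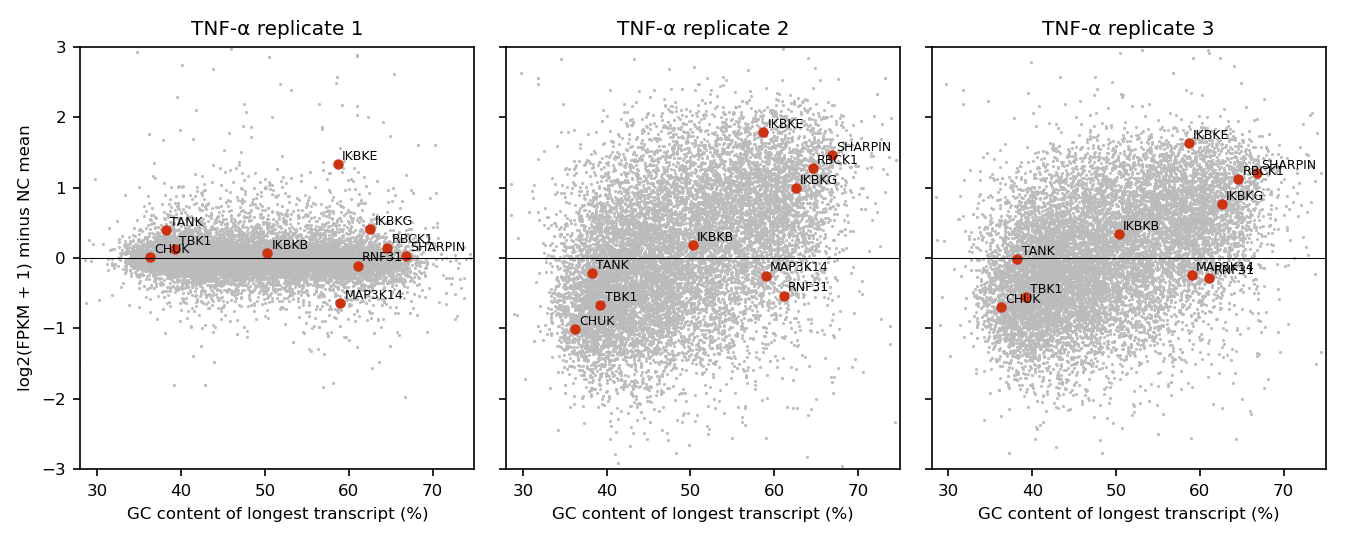
Log2(FPKM + 1) minus the NC mean (vertical axis, cropped to a range that leaves out a few genes) against the GC content of the longest transcript in percent (horizontal axis) in each TNF-α library. Grey points are all tested genes and red points the 10 members. In replicate 1 the cloud was flat and IKBKE (1.34) and MAP3K14 (-0.64) lay at its edges, whereas in replicates 2 and 3 genes of higher GC content lay higher, and CHUK (-1.01 and -0.70) and SHARPIN (1.46 and 1.21) lay at opposite ends.

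The mean levels of the 10 genes in NC cells lay between percentile 36.0 and percentile 85.7 of all tested genes. RBCK1 was highest at 27.3 ± 2.55 FPKM, followed by MAP3K14 at 13.3 ± 0.366 and SHARPIN at 12.7 ± 0.585 (SD, n = 3 each). CHUK, TBK1, RNF31 and IKBKG formed a middle group with means from 9.37 down to 6.80 FPKM, and TANK, IKBKE and IKBKB a low group with means of 4.62, 4.29 and 4.25 FPKM. Within each of these groups, and between MAP3K14 and SHARPIN, neighbours in the order overlapped in their libraries. The gaps between RBCK1 and MAP3K14, SHARPIN and CHUK, and IKBKG and TANK were free of overlap. IKBKE went from rank 9 in NC to rank 3 in TNF-α cells, and from percentile 36.2 to percentile 68.9 of all tested genes. In TNF-α cells every neighbouring pair in the order overlapped. The order is that of FPKM and depends on the merged exon length. That length was 11241 bases over 33 transcripts for IKBKB and 3791 bases over 6 for IKBKE.

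Ratios between members within a library do not depend on how the library was scaled. Of the 5 ratios compared, 3 differed between the groups without overlap, and the exact permutation p of each was 0.1, the smallest possible, or 0.167 after Benjamini-Hochberg adjustment over the 5. The ratio of IKBKE to TBK1 was 0.395, 0.467 and 0.653 in NC and 1.29, 3.39 and 2.79 in TNF-α libraries. IKBKE was thus below TBK1 in every NC library and above it in every TNF-α library. The difference was 2.22 on the log2 scale, and 1.26 after correction for GC content and length.

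The ratios of the accessory LUBAC subunits to the catalytic one were higher in every TNF-α library, most in replicates 2 and 3. The ratio of RBCK1 to RNF31 was 3.53, 3.38 and 3.43 in NC and 4.18, 13.1 and 9.57 in TNF-α libraries, a difference of 1.22 on the log2 scale (0.98 after correction). For SHARPIN to RNF31 it was 1.64, 1.65 and 1.52 in NC and 1.79, 7.11 and 4.82 in TNF-α libraries, a difference of 1.3 (0.86 after correction). In TNF-α replicate 1 these ratios exceeded the NC mean by 0.28 and 0.16 on the log2 scale. Both rest on the level of RNF31, which is uncertain where it overlaps other genes.

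The other ratios overlapped between the groups. CHUK to IKBKB was 2.21, 2.43 and 1.99 in NC and 2.11, 0.835 and 0.954 in TNF-α libraries (difference -0.89, exact permutation p = 0.2, adjusted p = 0.25). MAP3K14 to CHUK was 1.45, 1.28 and 1.57 in NC and 0.866, 2.66 and 2.07 in TNF-α libraries (difference 0.24, exact permutation p = 0.7, adjusted p = 0.7). TNF-α replicate 1 lay below and replicates 2 and 3 above the NC libraries in the latter, and its difference turned to -0.45 after correction and to -0.09 without TNF-α replicate 2.

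**Figure D4:**
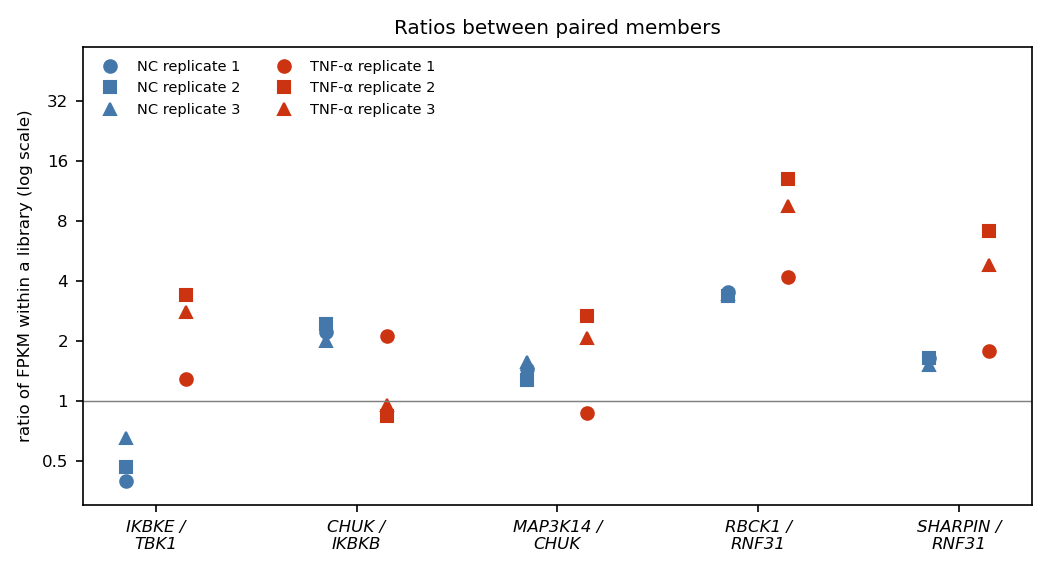
Ratio of the FPKM of paired members within each library (vertical axis, log scale). Blue points are the 3 NC and red points the 3 TNF-α libraries, with the replicate given by the symbol. IKBKE to TBK1 went from 0.395 to 0.653 in NC to 1.29 to 3.39 in TNF-α libraries, while CHUK to IKBKB and MAP3K14 to CHUK overlapped between the groups.

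The genes around the kinases were then counted by their roles. Of the IKK substrates, NF-κB and IκB genes, 9 of 10 were tested and 4 rose, with a median log2 fold change of 1.55 against 0.04 over all tested genes. The median was 0.86 after correction for GC content and length and 1.08 with TNF-α replicates 2 and 3 left out, where those over all tested genes were -0.00044 and -0.0065. All 9 were above 0, also after rescaling to TPM, quantile normalization, centring and correction for GC content and length, under which 4 to 7 were called. RELB, the noncanonical NF-κB partner, was at 5.90 to 8.34 FPKM in NC and 46.8 to 129.7 FPKM in TNF-α libraries (log2 fold change 3.48, adjusted p = 0.0185, limma). NFKBIA, which encodes the classical inhibitor IκBα, went from 13.0 to 14.4 FPKM in NC to 75.3 to 117.7 FPKM (2.79, adjusted p = 0.00415, limma). NFKBIE, which encodes the inhibitor IκBε, went from 5.10 to 6.30 FPKM in NC to 25.7 to 59.5 FPKM (2.73, adjusted p = 0.0202, limma). With TNF-α replicates 2 and 3 left out, all 9 were above 0 as well.

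Of the linear ubiquitin partners and editors, 8 of 10 were tested, 2 rose, and the median was 0.83. It was 0.34 after rescaling to TPM, 0.54 after quantile normalization, 0.64 after correction and 0.49 with TNF-α replicates 2 and 3 left out. TNIP1, which encodes a ubiquitin-binding partner of A20, was at 20.5 to 23.7 FPKM in NC and 100.5 to 191.2 FPKM in TNF-α libraries (log2 fold change 2.70, adjusted p = 0.0112, limma). TNFAIP3, the gene of the ubiquitin editor A20, was at 3.44 to 4.22 FPKM in NC and 18.9 to 57.6 FPKM in TNF-α libraries (2.70, adjusted p = 0.0421, limma). The latter was highest in TNF-α replicate 1, and its call was lost after rescaling to TPM (adjusted p = 0.178, limma), quantile normalization (0.0663) and centring (0.0519), where OPTN and TNIP1 were the 2 called. After correction 4 of the 8 were called, against 2.04% of tested genes.

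Among the genes of the receptor complex and the TAK1 kinase, 12 of 13 were tested and 1 rose, with a median of 0.19. BIRC3, the gene of the ubiquitin ligase cIAP2, was at 2.80 to 3.06 FPKM in NC and 16.8 to 28.7 FPKM in TNF-α libraries (log2 fold change 2.45, adjusted p = 0.00996, limma). Its call was lost after rescaling to TPM (2.20, adjusted p = 0.133, limma), which left 0 of the 12 called. With TNF-α replicates 2 and 3 left out the median of the 12 was 0.082. limma called 0 genes in the remaining lists, and so did limma-voom. These were the scaffolds, adaptors and chaperones of the kinases (9 tested, median 0.06, 3 at an unadjusted p under 0.05), the inputs and targets of TBK1 and IKKε (8 tested, median 0.36, 4 at that p) and the genes of NIK turnover and its receptors (4 tested, median 0.35, 0 at that p). Over all tested genes 24.2% had an unadjusted p under 0.05. After rescaling to TPM the medians of these 3 lists were -0.43, -0.12 and -0.13 and that of the receptor complex list was -0.31, beside -0.42 over all tested genes. With TNF-α replicates 2 and 3 left out the medians of these 3 lists were 0.14, 0.15 and 0.018, beside -0.0065 over all tested genes.

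Each of the 6 named genes lost its call without NC replicate 1, 2 or 3, as IKBKE did. All but NFKBIA lost it without TNF-α replicate 3, and RELB and NFKBIE also without TNF-α replicate 2. The adjusted p (limma) without 1 library reached 0.108 for BIRC3, 0.125 for TNIP1, 0.276 for TNFAIP3, 0.151 for RELB, 0.0615 for NFKBIA and 0.168 for NFKBIE, while the lowest log2 fold changes were 2.21, 2.50, 2.26, 3.19, 2.67 and 2.49.

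**Figure D5:**
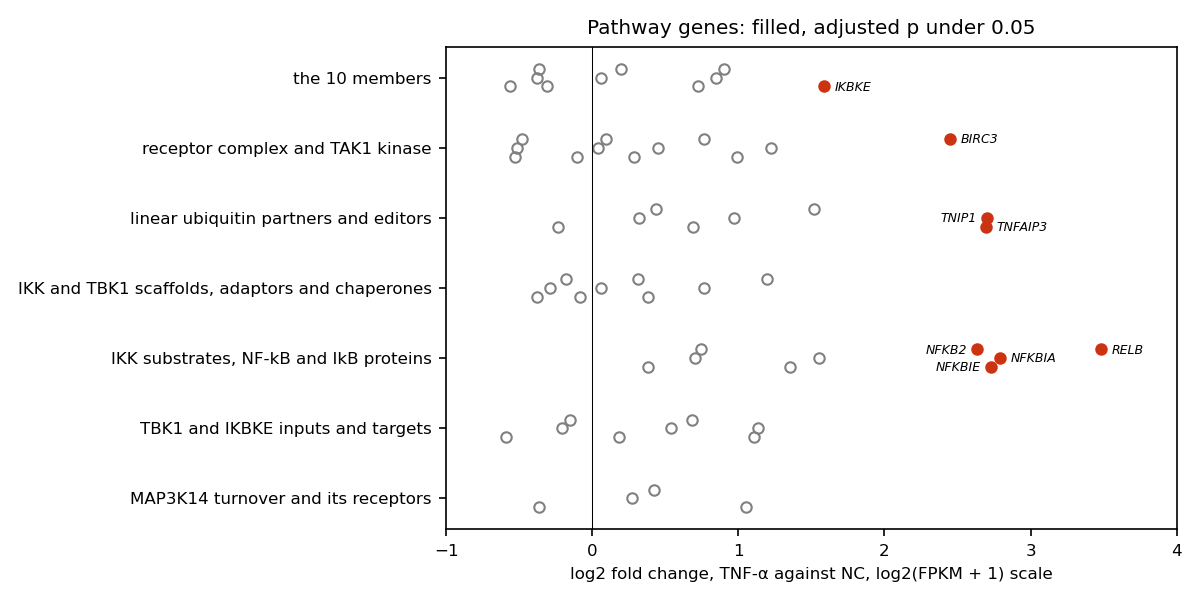
Log2 fold change of TNF-α against NC on the log2(FPKM + 1) scale (horizontal axis) for the 10 members and for the tested genes of 6 pathway lists. Each point is a gene, filled and named where the adjusted p was under 0.05. IKBKE (1.59) was the member called, and the NF-κB and IκB list held 4 of the 7 other called genes, with RELB highest at 3.48.

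The genes whose pattern over the 6 libraries was most like that of IKBKE were sought among the 10440 tested protein-coding genes, by the root mean square difference of their log2 deviations from the NC mean. IRF1, which encodes an interferon-regulated transcription factor, was nearest with 0.127, followed by SEMA7A, a membrane-anchored semaphorin, with 0.129. OPTN, the gene of the ubiquitin-binding adaptor optineurin, came next with 0.157. STAT5A, a signal-dependent transcription factor, and PDGFB, a growth factor chain, followed with 0.167 and 0.175. IRF1 was at 4.61, 5.18 and 5.74 FPKM in NC and at 11.9, 20.2 and 19.7 FPKM in TNF-α libraries. OPTN was at 13.9, 13.7 and 15.3 FPKM in NC and at 30.2, 54.5 and 47.1 FPKM in TNF-α libraries. These genes were picked for their likeness to IKBKE, so their fold changes are no further evidence on it.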

How the data were processed

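Cells of the U251 line were sequenced as 6 poly(A)-selected libraries. The authors deposited gene expression as FPKM, with 1 column per library, no pooling and no log transformation. The submitters' processing notes name HISAT2 2.0.5, StringTie 1.3.3b, featureCounts 1.5.0 and GATK 3.7, and edgeR and DESeq2 without a version. Their roles, the genome build and the use of strand are not given in the sources used here. All 58735 genes matched GENCODE 29 (GRCh38) in identifier, name, start, end and merged exon length. The table held 6 further per-sample columns that match no sample described here and were not used.

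Libraries were grouped by their titles. The read number behind each value was recovered as FPKM times length (100% of values whole within 0.05 reads). limma 3.58.1 in R 4.3.3 was run on log2(FPKM + 1) for genes with at least 1 FPKM in at least 3 libraries, with an intensity trend and Benjamini-Hochberg adjustment, after tests on simulated data. Exact permutation tests went over all divisions of the 6 libraries into 3 against 3. The counting intervals, the percentiles and the adjustment over the ratios used scipy 1.17.1. GC content and length were corrected with natural splines (5 degrees of freedom each) fitted to each library's log2 ratio to the mean library, which explained 20.8% to 35.0% of its variance. Other settings were the pseudocount, filter, scaling, trend, replicate block, left-out libraries and limma-voom on recovered reads.

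The 10 members and the 6 pathway lists were chosen with earlier results of these data known. All members are named, from each list at most 3 called genes by size of change, and the 5 genes most like a called member. Same-numbered libraries of the groups did not deviate together (correlations -0.01, -0.18 and 0.12). With 3 libraries per group this cannot decide whether the numbers pair them.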

Additional observations from a re-analysis of the deposited data

How the results depend on the processing

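Of all tested genes, 123 passed the threshold, 1 of them a member. Without a filter on low values 58 and 0 passed, after rescaling to TPM 58 and 0, with the replicate block 24 and 0, after quantile normalization 185 and 1, after correction for GC content and length 247 and 2, and with TNF-α replicates 2 and 3 left out 732 and 2. Leaving out 1 library in turn gave 10 to 9630 genes and 0 to 9 members, the highest of both without TNF-α replicate 1. Whether the replicate numbers pair the libraries is not known. The other 8 settings, among them limma-voom (113 genes), stayed within 1.5 times both counts.

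The log2 fold change of IKBKE kept its direction in all 19 alternatives (1.09 to 1.80, adjusted p 2.06e-05 to 0.168) and its call in 11. Directions turned for IKBKB after rescaling to TPM (-0.25), for TANK after rescaling to TPM (-0.40) and over the left-out libraries (-0.12 to 0.19), and with TNF-α replicates 2 and 3 left out for CHUK (0.017) and TBK1 (0.13). The ratio of MAP3K14 to CHUK turned after correction (-0.45) and ranged from -0.091 to 0.72 over the left-out libraries. The causes were not tested. Members had 482 to 7038 reads per library. The spread between TNF-α replicate 1 and replicates 2 and 3 was large beside the rest: without replicate 1 the SE went from 0.37 to 0.093 for SHARPIN and from 0.27 to 0.11 for CHUK.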
